A study of Mus musculus with 8 samples.

Results

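The 7 deposited RNA-seq libraries of mouse regulatory T cells (Tregs) were compared by the number in their sample titles: 4 libraries numbered 1 or 2 (untreated 1, untreated 2, FcCD70 1 and FcCD70 2) against 3 libraries numbered 3 or 4 (untreated 3, untreated 4 and FcCD70 3). They are 7 of the 8 samples of the series, because FcCD70 4 has no column in the table used here. Tregs, the FOXP3-positive CD4 T cells that hold immune responses in check, were sorted from Foxp3-GFP reporter mice titled WT. All groups were stimulated with beads that bind CD3 and CD28 in IL6, IL23 and IL1B, cytokines that favour IL-17-producing Th17 cells, and were sequenced on day 6. Untreated cultures received no other agent, and FcCD70 cultures were given FcCD70, the ligand of the costimulatory receptor CD27 in soluble form. The age and sex of the mice, and what the number stands for, are not given in the labels. In all 8 samples the treatment recorded as a characteristic is the opposite of the one in the title. Groups follow the titles here, and exchanging the 2 treatment names in every sample leaves the comparison of the numbers as it is.

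Activated T cells pass through G1, copy their DNA in S phase and divide in mitosis, and each stage has its own transcripts. MYC and the D-type cyclins act in G1, the MCM helicase and the enzymes that make deoxynucleotides serve S phase, and mitotic cyclins, kinesins and spindle checkpoint kinases serve division. Th17 cells make the cytokines encoded by Il17a and Il17f and carry the IL-23 receptor, and signals through the interleukin 1 receptor strengthen that program. KIT, the receptor of stem cell factor, is best known from mast cells and blood progenitors, and THY1 is a surface glycoprotein of T cells.

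Each library's normalized count is the number of reads of a gene divided by 1 scaling factor for that library. A gene was called when limma, with treatment as a covariate, gave an adjusted p under 0.05 over 11083 genes, those whose normalized counts averaged 10 or more. Every log2 difference below is numbers 1-2 minus numbers 3-4 on the log2(normalized count + 1) scale, which understates changes of low genes. Whether each library is a mouse of its own is not in the labels, and p-values measure only the spread between these libraries, which may be technical. The authors' own comparison of the treatments is labelled paired. If libraries with the same number share a mouse, the sets are 2 numbers against 2.

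The libraries numbered 1-2 held 18159685 to 19715108 reads and those numbered 3-4 held 21200214 to 23527899, so depth moved with the sets. With every library thinned to the shallowest depth, 12436 to 12827 genes had a read in numbers 1-2 and 12947 to 13101 in numbers 3-4. Reads counted to Lars2, the gene of a mitochondrial leucyl-tRNA synthetase, made up 1.57% to 1.95% of the reads in numbers 1-2 and 1.01% to 1.32% in numbers 3-4. Which sequence of the locus they came from was not examined. The log2 difference of Lars2 was 0.61 with a limma adjusted p of 0.18 over 7 libraries, and 0.60 with an adjusted p of 8.31e-06 without FcCD70 2. The part of depth and of these reads in the results was not tested. On the first principal component (33.9% of the variance) untreated 1, untreated 2 and FcCD70 1 lay at -23.8, -14 and -30.3, while the libraries numbered 3-4 lay between 18.6 and 24.6. FcCD70 2 lay between the sets at 0.8 and stood apart on the second component (27.2%), at -46.7 against 5.1 to 11.8 for the other libraries.

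**Figure D1:**
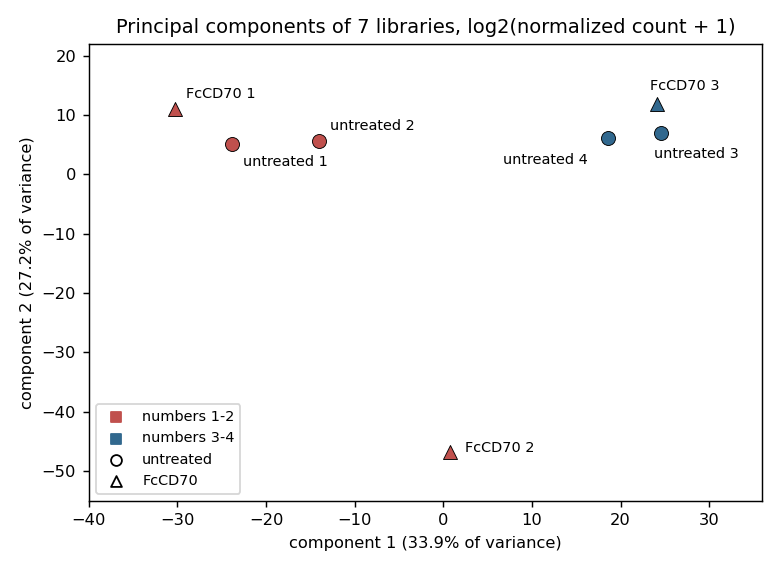
First (33.9% of variance) and second (27.2%) principal components of log2(normalized count + 1) over 11083 genes; each point is 1 library, red for numbers 1-2, blue for numbers 3-4, circles untreated and triangles FcCD70. The first component parts the numbers in 6 libraries, and FcCD70 2 lies low on the second, at -46.7.

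FcCD70 2 also departed from the rest by transcript length. In the shortest quintile of the genes (up to 2005 bases) its median log2 deviation from the mean of the 7 libraries was 0.28, and in the longest quintile (from 5256 bases) it was -0.29. In the other libraries these medians stayed between -0.14 and 0.12. Counts of calls in the gene lists are therefore given with and without FcCD70 2. GC content moved with the sets as well, since the median log2 difference went from 0.10 in the quintile of genes with the lowest GC to -0.17 in the quintile with the highest. With a trend in length and GC content taken out of each library, 388 genes were called higher and 390 lower over 7 libraries.

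**Figure D2:**
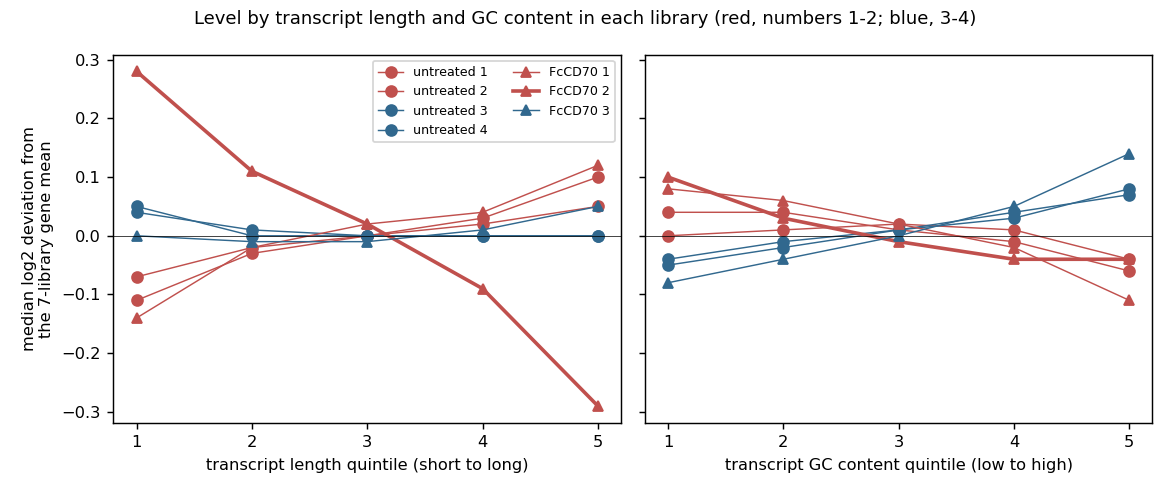
Median log2 deviation from each gene's mean over 7 libraries (y axis) in quintiles of the genes by transcript length (left) and GC content (right); each line is 1 library, red for numbers 1-2, blue for 3-4, the thick line FcCD70 2. FcCD70 2 falls from 0.28 in the shortest to -0.29 in the longest transcripts, and the blue libraries rise with GC content.

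Genes of cell division and several Th17 genes were higher in numbers 1-2, while Thy1, Gzmc, Gzma, Tgm2 and Socs1 were higher in numbers 3-4. Over 7 libraries 325 of the 11083 genes were called (2.93%), 210 higher (1.89%) and 115 lower (1.04%) in numbers 1-2. Without FcCD70 2, 2994 genes were called (27.0%), 1438 higher (13.0%) and 1556 lower (14.0%). All 325 genes were called in the same direction without that library. The median standard error of a log2 difference was 0.14 with FcCD70 2 and 0.10 without it. Of the 325 genes, 142 differed by more than 1 on the log2 scale, 108 higher and 34 lower, and 316 had sets that did not overlap, against 22.2% of all genes tested. The count of calls over 7 libraries depended on single libraries: it was 0 without untreated 1 and 0 without FcCD70 3 (with 1509 and 1203 genes at an unadjusted p under 0.05), 38 without untreated 2, 33 without untreated 3 and 107 without untreated 4. In the same fits the term for FcCD70 called 0 genes over 7 libraries (266 at an unadjusted p under 0.05) and 6 without FcCD70 2.

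The difference between the numbers was seen within each treatment. Among untreated libraries alone 1695 genes were called (15.3%), 852 higher (7.69%) and 843 lower (7.61%), and 1396 of them (82.4%) had the same sign in FcCD70 1 and 2 against FcCD70 3, which share no library with the untreated ones. All genes tested had the same sign in 63.7%. With FcCD70 1 alone against FcCD70 3, 1629 of the 1695 (96.1%) had the same sign, against 72.5% of all genes. The sets were proposed with values of these libraries in view, so these shares describe the sets and are no independent evidence of them. If libraries with the same number share a mouse, the treatments are not independent of each other either. No gene was called for an interaction of number and treatment by limma (203 at an unadjusted p under 0.05) or by edgeR (0, with 221).

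**Figure D3:**
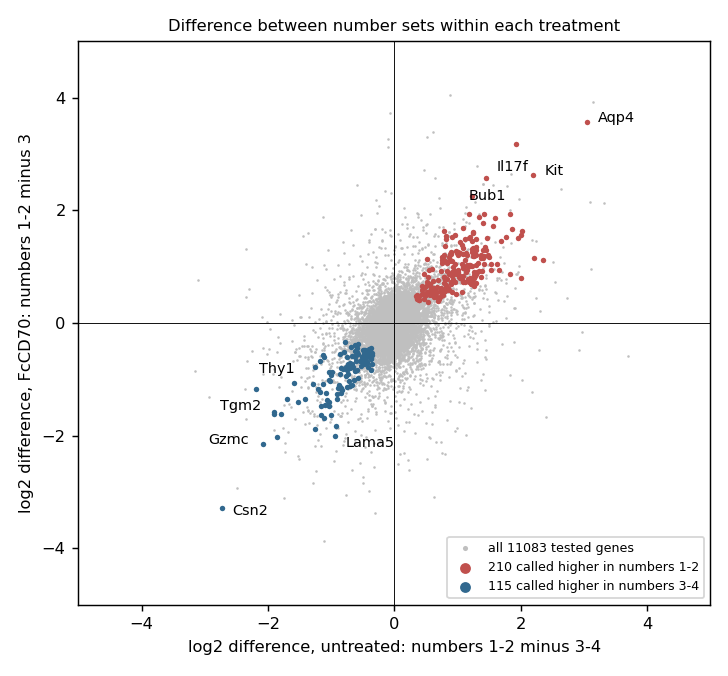
Log2 difference of numbers 1-2 minus 3-4 in the untreated libraries (x axis) and in the FcCD70 libraries (y axis) for each of 11083 tested genes; red points are the 210 genes called higher in numbers 1-2 and blue the 115 called lower, over 7 libraries. The called genes lie in the quadrants where both treatments go the same way, with Kit and Aqp4 high and Csn2, Gzmc and Thy1 low.

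Kit, on chromosome 5 (GRCm38, 75574916 to 75656722, plus strand), was 5.17-fold higher in numbers 1-2 on this scale. Its normalized count was 506 in untreated 1, 300 in untreated 2, 627 in FcCD70 1 and 350 in FcCD70 2, against 93.2 in untreated 3, 75.7 in untreated 4 and 75.0 in FcCD70 3. The lowest library of numbers 1-2 stood above the highest of numbers 3-4. The set means were 446 ± 149 (SD, n = 4) and 81.3 ± 10.3 (n = 3), and the log2 difference was 2.37 (SE 0.26, limma adjusted p = 0.0076), or 2.48 without FcCD70 2. Most other genes of the mast cell list were at or near 0: Cma1, Fcer1a, Mcpt4, Mcpt8 and Tpsb2 were at 0 in all 7 libraries, Cpa3 and Gata2 were at 0 in numbers 1-2, and Ms4a2 was at 6.21 or less. Hdc, the other tested member, was at 6.6 to 14.6 in numbers 1-2 and 4.86 to 9.57 in numbers 3-4. It was not called (log2 difference 0.57, limma adjusted p = 0.645) and was chosen after its values were seen. The summed level of the 10 mast cell and progenitor genes was 314 to 646 in numbers 1-2 and 84.7 to 100 in numbers 3-4, almost all of it Kit.

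Thy1, on chromosome 9 (44043384 to 44048579, plus strand), went the other way. It stood at 4859, 5443, 5468 and 6072 in untreated 1, untreated 2, FcCD70 1 and FcCD70 2, and at 12740, 12392 and 12236 in untreated 3, untreated 4 and FcCD70 3. The sets lay far apart with little spread inside each, 5461 ± 495 against 12456 ± 258. The log2 difference was -1.21 (SE 0.10, limma adjusted p = 0.00487) and ranged from -1.29 to -1.09 over all alternatives tried. Of the 10 T cell marker genes Thy1 was the only one called over 7 libraries. Without FcCD70 2, 6 were called lower and 0 higher, beside 14.0% and 13.0% of all genes. Cd4, the coreceptor of helper T cells, was at 10796 to 14030 in numbers 1-2 and 16064 to 16499 in numbers 3-4 (log2 difference -0.36, or -0.29 and called without FcCD70 2). Cd247 and Cd3e, chains of the T cell receptor complex, had log2 differences of -0.24 and -0.08, and the first of these was called without FcCD70 2 (-0.26). The summed T cell markers were 87636 to 110302 and 103810 to 109177, which overlap. FcCD70 2 stood apart for this list, with a median log2 deviation from the mean of 7 libraries of 0.18. The value was -0.14, -0.11 and -0.09 in untreated 1, untreated 2 and FcCD70 1, and 0.01 to 0.09 in numbers 3-4. In such bulk libraries fewer cells of a type and less RNA per cell cannot be told apart.

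Markers of other cell types held few calls. Over 7 libraries 0 of 2 tested CD8 and gamma-delta T cell markers, 0 of 7 B and plasma cell markers, 0 of 2 myeloid markers, 0 of 1 platelet marker and 0 of 3 stromal and endothelial markers were called. Without FcCD70 2 a B cell marker (Ebf1, log2 difference 0.93) and an endothelial one (Pecam1, 0.45) were called higher, beside 13.0% of all genes. Summed levels were 34494 to 37523 and 33405 to 34676 for B and plasma cells, 115 to 184 and 112 to 175 for myeloid cells, and 160 to 272 and 245 to 251 for CD8 and gamma-delta cells. Of 2 tested markers of NK and innate lymphoid cells 1 was called higher, with and without FcCD70 2. It is also on another list and is counted there too. The summed level of that list was 1052 to 1338 against 712 to 1141, almost all of it from the 2 tested members. The other members were low: Ncr1 and Klra7 were at 0 throughout, Klrb1c was at 7.94 or less and Fcer1g at 19.1 or less. The sum therefore does not describe NK cells.

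Most mitosis genes were higher in numbers 1-2. All 26 tested members of the list lay above 0, and 20 were called higher and 0 lower, beside 1.89% and 1.04% of all genes. Their median log2 difference was 1.03, against -0.01 for all genes tested. Without FcCD70 2 all 26 were called higher, beside 13.0% of all genes, with a median of 1.04. The list's median ranged from 0.87 to 1.19 over the alternatives tried. As the sets were proposed with values of these libraries in view, these counts describe the sets and do not support them independently.

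The promoters of 6 called mitosis genes are shown, those that hold both motifs typical of late cell cycle promoters. The motifs are the cell cycle homology region, TTTGAA, which the MuvB complex binds, and CCAAT, which NF-Y binds. Each sequence is the 250 bases before the start site in RefSeq (GRCm38.p6), read on the strand of the gene, with every match of TTTGAA or CCAAT on either strand in capitals (TTCAAA and ATTGG are the same motifs on the other strand). Cdc20 activates the anaphase-promoting complex, Kif11 is the kinesin that pushes spindle poles apart, Top2a untangles DNA, Ncapg is a condensin subunit, Ccnb2 is a mitotic cyclin and Mki67 encodes the proliferation marker Ki-67.
Cdc20, chr4:118437344-118437593, minus strand: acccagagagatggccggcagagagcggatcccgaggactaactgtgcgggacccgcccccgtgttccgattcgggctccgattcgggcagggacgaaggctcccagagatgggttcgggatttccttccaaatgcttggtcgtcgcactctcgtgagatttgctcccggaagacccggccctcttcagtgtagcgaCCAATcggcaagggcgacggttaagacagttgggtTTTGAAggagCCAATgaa
Kif11, chr19:37376132-37376381, plus strand: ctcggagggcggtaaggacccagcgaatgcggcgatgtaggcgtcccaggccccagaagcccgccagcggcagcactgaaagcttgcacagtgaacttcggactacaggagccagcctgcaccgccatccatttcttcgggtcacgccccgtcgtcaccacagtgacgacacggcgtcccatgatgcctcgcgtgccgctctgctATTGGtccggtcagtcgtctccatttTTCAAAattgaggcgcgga
Top2a, chr11:99024190-99024439, minus strand: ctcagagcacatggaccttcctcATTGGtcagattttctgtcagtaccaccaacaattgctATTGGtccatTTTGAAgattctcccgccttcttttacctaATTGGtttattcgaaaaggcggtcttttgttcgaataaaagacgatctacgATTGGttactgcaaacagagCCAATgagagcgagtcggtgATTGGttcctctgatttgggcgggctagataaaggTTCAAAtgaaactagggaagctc
Ncapg, chr5:45669675-45669924, plus strand: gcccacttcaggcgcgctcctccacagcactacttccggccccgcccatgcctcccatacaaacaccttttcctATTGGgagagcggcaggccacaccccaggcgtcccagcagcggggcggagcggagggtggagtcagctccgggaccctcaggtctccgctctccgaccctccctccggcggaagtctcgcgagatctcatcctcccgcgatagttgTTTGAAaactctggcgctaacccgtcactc
Ccnb2, chr9:70421555-70421804, minus strand: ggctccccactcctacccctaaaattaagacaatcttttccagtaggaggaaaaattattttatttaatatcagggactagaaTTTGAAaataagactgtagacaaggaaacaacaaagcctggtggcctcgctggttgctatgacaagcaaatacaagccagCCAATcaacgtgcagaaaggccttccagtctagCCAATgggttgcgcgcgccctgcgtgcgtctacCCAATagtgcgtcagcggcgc
Mki67, chr7:135716380-135716629, minus strand: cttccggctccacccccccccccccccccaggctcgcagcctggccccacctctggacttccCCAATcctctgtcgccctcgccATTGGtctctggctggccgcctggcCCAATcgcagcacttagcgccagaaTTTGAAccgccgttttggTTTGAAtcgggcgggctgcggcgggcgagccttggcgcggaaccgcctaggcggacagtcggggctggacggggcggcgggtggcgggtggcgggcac

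The TTTGAA match nearest to the start site began at -18 in Cdc20, -19 in Kif11, -23 in Top2a and -30 in Ncapg, but at -98 in Mki67 and -167 in Ccnb2, counting the base before the start as -1. Of the 21 promoters found for mitosis list genes (21 of 26 genes matched), 9 held TTTGAA (42.9%) and 19 held CCAAT (90.5%). In the 10970 promoters of tested genes the shares were 10.5% and 35.1%, and in all 32851 RefSeq promoters they were 16.0% and 33.8%. The replication list, with 25 promoters, held TTTGAA in 3 (12%) and CCAAT in 16 (64.0%). The 197 promoters of all genes called higher held TTTGAA in 20.3%, and the 127 of genes called lower in 11%. A match describes these letters only.

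Ccna2, the cyclin of S phase and early mitosis, showed the pattern plainly. It was at 1743, 1487, 1276 and 1413 in untreated 1, untreated 2, FcCD70 1 and FcCD70 2, against 587, 784 and 531 in untreated 3, untreated 4 and FcCD70 3. The sets did not overlap, and untreated 4 was the highest of numbers 3-4. Its log2 difference was 1.28 (SE 0.13, limma adjusted p = 0.0076). Bub1, a spindle checkpoint kinase, was at 624, 583, 487 and 562 against 189, 296 and 140, in the same order of libraries, with a log2 difference of 1.56 (SE 0.19, limma adjusted p = 0.0076). For Birc5, a subunit of the chromosomal passenger complex, the values were 967, 847, 761 and 1056 against 301, 450 and 319, a log2 difference of 1.37. Cenpe, a kinetochore motor, had 1.37 too.

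The genes with promoters printed above were all higher in numbers 1-2. Top2a was at 4660 to 6572 in numbers 1-2 and 2970 to 3744 in numbers 3-4, a log2 difference of 0.81 (SE 0.10). For Kif11 the ranges were 1114 to 1545 and 516 to 769 (1.10), for Ncapg 861 to 1219 and 566 to 675 (0.79), and for Cdc20 320 to 618 and 205 to 279 (1.01). Ccnb2 had a log2 difference of 1.11 (limma adjusted p = 0.0156). Mki67, a marker of cycling cells with a very long transcript, was an exception in its spread. FcCD70 2, at 3165, lay below untreated 4 at 3534, while the other libraries of numbers 1-2 were at 5463 to 7522. Its log2 difference was 1.03 with FcCD70 2 (limma adjusted p = 0.0453) and 1.20 without it.

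Related families picked by symbol after the values were seen went the same way, and some of their genes are also on the lists. Their counts over 7 libraries stand beside 1.89% of all genes called higher and 1.04% lower. Those without FcCD70 2 stand beside 13.0% and 14.0%. Of 26 tested kinetochore and centromere genes 9 were called higher and 0 lower, with a median of 0.84, and 25 lay above 0. Without FcCD70 2, 17 were higher and 1 lower. Ska1, which couples kinetochores to microtubules, had a log2 difference of 1.79. Of 28 kinesin genes 10 were called higher and 0 lower, although the family median was only 0.15, and 14 were higher and 1 lower without FcCD70 2. Of 23 genes of homologous recombination and the Fanconi pathway 8 were called higher and 0 lower, with a median of 0.53, and 15 were higher without FcCD70 2. Brca1 among them was at 368 to 712 in numbers 1-2 and 243 to 342 in numbers 3-4 (log2 difference 0.96, limma adjusted p = 0.0187).

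DNA replication genes shifted less than mitosis genes. Of 26 tested members 13 were called higher and 0 lower, beside 1.89% and 1.04% of all genes, 25 lay above 0, and the median was 0.59. Without FcCD70 2 there were 19 higher and 1 lower, beside 13.0% and 14.0%. Rrm2, the small subunit of ribonucleotide reductase, was at 1897, 1517, 1157 and 1301 in untreated 1, untreated 2, FcCD70 1 and FcCD70 2, against 754, 799 and 656 in untreated 3, untreated 4 and FcCD70 3. The sets did not overlap, and the log2 difference was 1.04 (SE 0.12, limma adjusted p = 0.0076). The helicase subunit Mcm5 had a log2 difference of 0.96 and the origin licensing factor Cdc6 one of 1.18, both called.

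Some members of that list did not follow. Pcna, the sliding clamp of DNA polymerase, was at 1368 to 2535 in numbers 1-2 and 1762 to 1863 in numbers 3-4, with a log2 difference of 0.06 (limma adjusted p = 0.903) that turned to -0.09 without FcCD70 2. Cdt1, a licensing factor that is degraded in S phase, had a log2 difference of -0.46 (adjusted p = 0.339), and it was the gene called lower without FcCD70 2, at -0.59 (limma adjusted p = 0.0156).

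Myc and Ccnd2, which act earlier in the cycle, were lower in numbers 1-2. Myc was at 1438, 1379, 1249 and 1549 in untreated 1, untreated 2, FcCD70 1 and FcCD70 2, and at 2466, 2014 and 2394 in untreated 3, untreated 4 and FcCD70 3. Every library of numbers 1-2 was below every library of numbers 3-4, and the log2 difference was -0.71 (SE 0.11, limma adjusted p = 0.0164). Ccnd2, a D-type cyclin, was at 5038 to 6982 against 8950 to 10411, with a log2 difference of -0.59 (limma adjusted p = 0.0416). The other 9 tested genes of the G1 list were not called, and the median of the list was -0.02. Over 7 libraries 1.04% of all genes were called lower. Without FcCD70 2, 2 of the 11 were called higher and 3 lower, beside 13.0% and 14.0% of all genes.

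**Figure D4:**
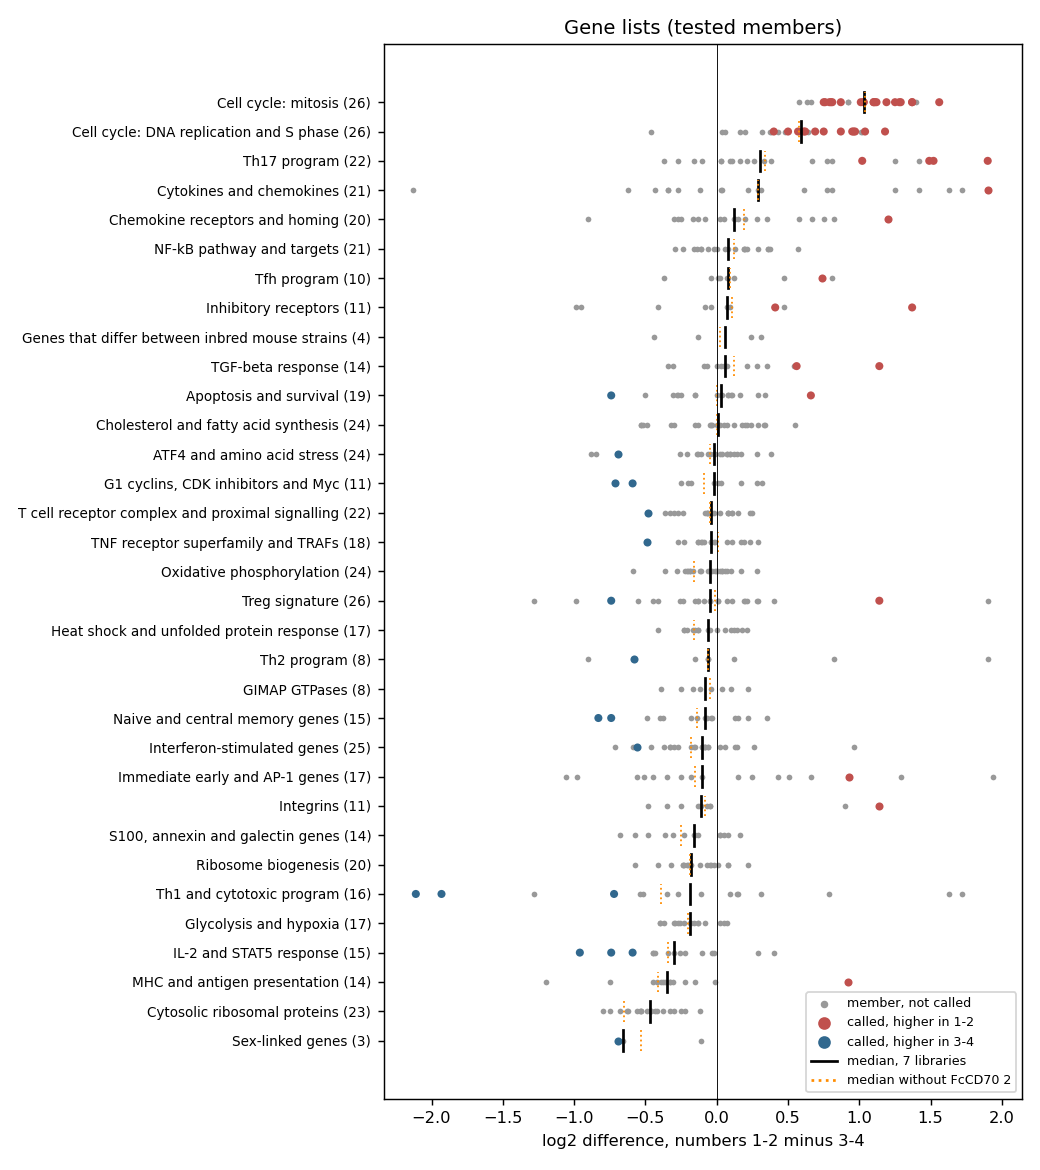
Log2 difference of numbers 1-2 minus 3-4 (x axis) for the tested members of each gene list, with their number in brackets; large red and blue points are members called higher or lower over 7 libraries, grey points are not called, black ticks are list medians and dotted orange ticks the medians without FcCD70 2. Mitosis, with 20 of 26 called higher, lies at the top, and the 23 ribosomal protein genes, all below 0 and none called, lie near the bottom.

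Th17 genes were partly higher in numbers 1-2. Of 22 tested members 4 were called higher (Il17f, Il23r and Il1r1 among them) and 0 lower, beside 1.89% and 1.04% of all genes, 18 lay above 0, and the median was 0.30. Without FcCD70 2, 11 were called higher and 0 lower, beside 13.0% and 14.0% of all genes, with a median of 0.34. Il17f was at 642, 563, 191 and 335 in untreated 1, untreated 2, FcCD70 1 and FcCD70 2, against 196, 248 and 41.4 in untreated 3, untreated 4 and FcCD70 3. Across treatments the sets overlapped, because FcCD70 1 lay below untreated 3. Within each treatment of the 7 libraries numbers 1-2 were above, but in the FcCD70 libraries this rests on FcCD70 3 alone. With treatment as a covariate the log2 difference was 1.90 (SE 0.28, limma adjusted p = 0.0135). Il17a, at 55.9 to 174 and 23.8 to 136, gave 1.25 and was not called over 7 libraries (adjusted p = 0.187), but was without FcCD70 2 (1.14, limma adjusted p = 0.0377).

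Il23r, the signalling chain of the IL-23 receptor, was at 67.4 to 237 and 38.8 to 47.0, a log2 difference of 1.52 (limma adjusted p = 0.0493). Irf4, Hif1a and Maf, transcription factors of Th17 differentiation, were not called over 7 libraries (log2 differences 0.38, 0.33 and 0.26). They were among those called higher without FcCD70 2 (0.48, 0.35 and 0.20). Ahr, Batf and Stat3, further factors of that kind, had log2 differences of 0.11, 0.03 and 0.03 and were called in neither fit.

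Both receptors for interleukin 1 were higher in numbers 1-2. Il1r1, the signalling receptor, was at 698, 674, 605 and 395 in untreated 1, untreated 2, FcCD70 1 and FcCD70 2, against 173, 354 and 170 in untreated 3, untreated 4 and FcCD70 3. Its log2 difference was 1.49 (SE 0.25, limma adjusted p = 0.0182). Il1r2, the decoy receptor, was at 800, 907, 871 and 1073 against 364, 381 and 334, in that order of libraries. Its sets were further apart relative to their spread (log2 difference 1.33, SE 0.13, limma adjusted p = 0.0076). Of 6 tested genes of the receptor family, chosen after their values were seen, these were the 2 called over 7 libraries. Without FcCD70 2, 4 were called higher. Among all genes 1.89% were called higher over 7 libraries and 13.0% without FcCD70 2.

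Treg identity genes moved in both directions. Of 26 tested members of the Treg list 1 was called higher (Itgae, the integrin chain CD103, log2 difference 1.14) and 1 lower (Ebi3, a subunit of IL-35, -0.74), beside 1.89% and 1.04% of all genes, with a median of -0.05. Without FcCD70 2, 8 were called higher and 8 lower, beside 13.0% and 14.0% of all genes, with a median of -0.01. Ctla4, an inhibitory receptor (0.45), and Ikzf2, which encodes the transcription factor Helios (0.30), were among the higher, and Izumo1r, the folate receptor 4 (-0.49), among the lower. Foxp3 was at 6585, 5606, 5881 and 2788 in untreated 1, untreated 2, FcCD70 1 and FcCD70 2, and at 4811, 5126 and 5948 in untreated 3, untreated 4 and FcCD70 3. FcCD70 2 lay below all other libraries, and the log2 difference was -0.05 (SE 0.25, limma adjusted p = 0.946). Without FcCD70 2 it was 0.19 (SE 0.07, limma adjusted p = 0.0462). Cd27, the receptor that FcCD70 binds, was at 5808 to 6936 and 6446 to 6688, a log2 difference of -0.04 (95% interval -0.26 to 0.18). Il7r, the IL-7 receptor chain, gave -0.38 (adjusted p = 0.168) over 7 libraries and -0.43 (limma adjusted p = 0.000685) without FcCD70 2.

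Granzyme genes, which encode proteases of cytotoxic granules, were low in numbers 1-2. Gzmc was at 60.5, 37.3, 20.7 and 67.4 in untreated 1, untreated 2, FcCD70 1 and FcCD70 2, against 223, 188 and 169 in untreated 3, untreated 4 and FcCD70 3. The sets did not overlap, and the log2 difference was -2.11 (SE 0.38, limma adjusted p = 0.0244). Gzma was at 18.2 to 49.4 against 96.6 to 149 (-1.93, limma adjusted p = 0.0224). Gzmb, at 483 to 1268 against 1746 to 2339, was not called over 7 libraries (-1.28, adjusted p = 0.0704) and was without FcCD70 2 (-1.45, limma adjusted p = 4.99e-05). Runx3, a transcription factor of cytotoxic lineages, was at 1041 to 1103 against 1648 to 1912 (-0.72, limma adjusted p = 0.00937). Of 16 tested Th1 and cytotoxic genes these 3 called genes (Gzmc, Gzma and Runx3) were lower and 0 were higher. Among all genes 1.04% were called lower and 1.89% higher. The median of the list was -0.19, with 9 members below 0 and 7 above. Prf1, which encodes perforin, had a log2 difference of 0.09 and was called in neither fit. Without FcCD70 2, 6 were lower and 1 higher (Il12rb2, 0.94), beside 14.0% and 13.0% of all genes. Granzyme genes resemble each other, so reads could be shared among them.

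Targets of IL-2 and STAT5 signalling were lower in numbers 1-2 where they were called over 7 libraries. Of 15 tested members 3 were called lower (Socs1, Bcl2 and Ccnd2) and 0 higher, beside 1.04% and 1.89% of all genes. Of the 15, 13 lay below 0, with a median of -0.30. Without FcCD70 2, 9 were lower and 1 higher, beside 14.0% and 13.0% of all genes. Socs1, a feedback inhibitor of cytokine receptors, was at 490, 397, 412 and 459 in untreated 1, untreated 2, FcCD70 1 and FcCD70 2, and at 969, 669 and 938 in untreated 3, untreated 4 and FcCD70 3. All libraries of numbers 1-2 were lower, and the log2 difference was -0.96 (SE 0.16, limma adjusted p = 0.0175). Bcl2, which protects from apoptosis, was at 3747 to 5714 against 7165 to 9166 (-0.74, limma adjusted p = 0.0236). Pim2, a survival kinase, went the other way at 0.40 (adjusted p = 0.0504, and 1.3e-04 without FcCD70 2). The receptor chains Il4ra (-0.58) and Il10ra (-0.83) were called lower as well.

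**Figure D5:**
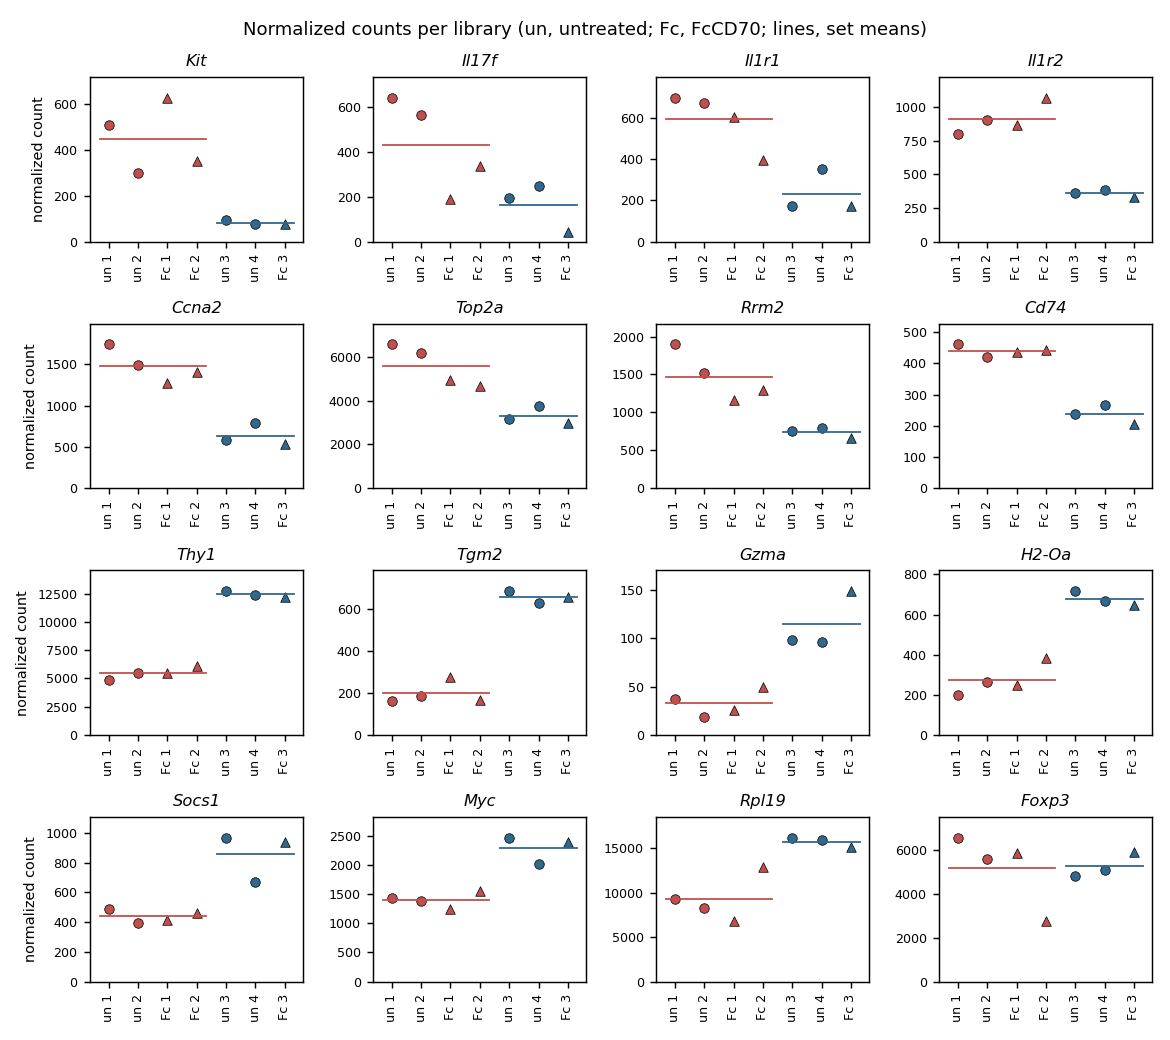
Normalized count (y axis, linear from 0) of 16 genes in each of the 7 libraries (x axis); red points are numbers 1-2 and blue numbers 3-4, circles untreated and triangles FcCD70, and lines are set means. Kit, Ccna2 and Cd74 are higher in every red library and Thy1, Tgm2 and Myc lower, while Il17f overlaps between the treatments and FcCD70 2 stands apart for Rpl19 and Foxp3.

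Ribosomal protein genes showed how FcCD70 2 bears on the comparison. Over 7 libraries 0 of 23 tested members were called, though all 23 lay below 0 with a median of -0.47. Without FcCD70 2 all 23 were called lower, beside 14.0% of all genes, with a median of -0.65. Rpl19, a protein of the large subunit, was at 9319, 8272, 6768 and 12866 in untreated 1, untreated 2, FcCD70 1 and FcCD70 2, and at 16180, 15882 and 15148 in untreated 3, untreated 4 and FcCD70 3. FcCD70 2 was the highest of numbers 1-2 and still below the other set. The list's median log2 deviation from the mean of 7 libraries was -0.26, -0.34 and -0.54 in untreated 1, untreated 2 and FcCD70 1, but 0.31 in FcCD70 2, within the 0.17 to 0.35 of numbers 3-4. After a trend in transcript length and GC content was taken out of each library, 13 of the 23 were called lower over 7 libraries and 22 without FcCD70 2. Among all 76 tested cytosolic ribosomal protein genes, grouped after the values were seen, 75 lay below 0, 0 were called over 7 libraries and 73 were lower without FcCD70 2. Reads of these genes can be shared with pseudogenes, so their counts are uncertain.

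Antigen presentation genes parted in direction. Of 14 tested members 13 lay below 0, with a median of -0.35, yet the only one called over 7 libraries was higher. This was Cd74, the invariant chain of MHC class II, at 461, 420, 438 and 444 in untreated 1, untreated 2, FcCD70 1 and FcCD70 2, against 237, 267 and 205 in untreated 3, untreated 4 and FcCD70 3 (log2 difference 0.92, SE 0.13, limma adjusted p = 0.0131). H2-Oa, a subunit of the class II peptide-loading modulator DO that is not on the list, was at 198, 263, 248 and 384 against 717, 666 and 645 (-1.38, SE 0.20, limma adjusted p = 0.0131). H2-Ab1, a class II beta chain, was at 41.4 to 106 and 80.6 to 138 and was not called (-0.75, adjusted p = 0.264). Without FcCD70 2, 10 of the 14 were called lower and 1 higher, beside 14.0% and 13.0% of all genes. Interferon-induced GTPase genes were grouped after the values were seen. Of 10 tested, 2 were called lower and 0 higher, beside 1.04% and 1.89% of all genes. Igtp was 1 of the 2 (-0.56, limma adjusted p = 0.0175). Without FcCD70 2, 5 of the 10 were lower, beside 14.0% of all genes.

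Metabolic and stress lists held few calls over 7 libraries, and their counts without FcCD70 2 stand beside 13.0% of all genes called higher and 14.0% lower. Of 17 tested glycolysis and hypoxia genes 0 were called, with 14 below 0 and a median of -0.19, and without FcCD70 2, 8 were lower and 0 higher. Of 24 oxidative phosphorylation genes 0 were called over 7 libraries, and 11 were lower and 1 higher without FcCD70 2. Of 20 ribosome biogenesis genes 0 were called, and 10 were lower and 1 higher without that library. In the heat shock, cholesterol, GIMAP and S100 and annexin lists 0 members were called over 7 libraries. Without FcCD70 2 the heat shock list held 1 higher and 5 lower of 17, and the cholesterol list 3 higher and 5 lower of 24. The GIMAP list held 1 higher and 3 lower of 8, and the S100 and annexin list 0 higher and 7 lower of 14. In the ATF4 list 1 of 24 was lower, Trib3 (-0.69, limma adjusted p = 0.0263), a pseudokinase of the amino acid stress response, and 2 were higher and 5 lower without FcCD70 2. Of 21 NF-kB genes 0 were called over 7 libraries, and 8 were higher and 1 lower without FcCD70 2, with Birc2, an inhibitor of apoptosis, at 0.57 over 7 libraries (adjusted p = 0.0568).

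Several genes of large change lay outside these programs. Cyp1a1, an enzyme induced through the aryl hydrocarbon receptor, was at 610, 228, 287 and 193 in untreated 1, untreated 2, FcCD70 1 and FcCD70 2, against 82.5, 101 and 75.0 in untreated 3, untreated 4 and FcCD70 3 (log2 difference 1.87, limma adjusted p = 0.0196). Of 5 tested targets of that receptor it was the only one called over 7 libraries, beside 1.89% of all genes called higher. Without FcCD70 2, 2 were called higher, beside 13.0% of all genes. Hmgn3, a nucleosome-binding protein, was at 243 to 364 against 76.7 to 101 (1.88). Pik3r3, a regulatory subunit of PI3 kinase, was at 239 to 559 against 123 to 139 (1.68), and Cth, which makes cysteine from cystathionine, at 37.3 to 116 against 15.0 to 31.3 (1.83). Havcr2, the inhibitory receptor TIM-3, and Ccr1, a chemokine receptor, had log2 differences of 1.37 and 1.20 and were called.

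Among genes lower in numbers 1-2, Tgm2, a transglutaminase, was at 163, 186, 274 and 167 in untreated 1, untreated 2, FcCD70 1 and FcCD70 2, and at 684, 626 and 654 in untreated 3, untreated 4 and FcCD70 3. The sets lay apart with a log2 difference of -1.79 (SE 0.19, limma adjusted p = 0.0076). Lama5, a laminin chain, was at 518 to 1129 against 1706 to 2519 (-1.37), and Unc93b1, which carries nucleic acid sensing Toll-like receptors, at 94.9 to 183 against 295 to 353 (-1.39). Tspan4, a tetraspanin, had -1.47 and Kcnk5, a potassium channel, -1.56. Of lower level, Csn2, a milk casein gene chosen after its values were seen, was at 1.12 to 6.05 against 23.8 to 40.0 (-2.95, limma adjusted p = 0.0266), with FcCD70 1 and 2 below 3 reads. Aqp4, a water channel chosen in the same way, was at 12.1 to 45.1 against 0.882 to 3.48 (3.26, limma adjusted p = 0.0456), with libraries of numbers 3-4 near or below 3 reads. The size of both differences depends on the pseudocount.

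Of 10 listed sex-linked genes 3 were tested, and Xist and the listed genes of chromosome Y were not analysed here. Kdm6a, an X-linked histone demethylase, was at 1534 to 2152 in numbers 1-2 and 3014 to 3193 in numbers 3-4 (-0.69, limma adjusted p = 0.0223). Kdm5c gave -0.66 (adjusted p = 0.053) over 7 libraries and -0.53 (limma adjusted p = 2.43e-06) without FcCD70 2. Ddx3x, at 12023 to 13322 against 13466 to 14254, gave -0.11 and was not called. Of 4 tested genes known to differ between inbred mouse strains 0 were called over 7 libraries. Without FcCD70 2, 1 was higher and 1 lower, beside 13.0% and 14.0% of all genes. The part of sex or strain in the sets was not tested.

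FcCD70 4 could be rebuilt from the authors' mean over 8 libraries and entered no result above. On the first principal component it fell at 20.8, among numbers 3-4. For 314 of the 325 called genes (96.6%) its value lay on the side of numbers 3-4, against 75.9% of all genes tested. For Il17f it stood at 229, above FcCD70 1 at 191 and below FcCD70 2 at 335, so with it the numbers overlapped within FcCD70. The same held for Il17a, at 63.8 in the rebuilt library, 55.9 in FcCD70 1 and 80.9 in FcCD70 2. With it included, 522 genes were called higher and 508 lower.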

How the data were processed

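Libraries of mouse Treg mRNA were made with a strand-marking Illumina kit, per the labels' protocols. The submitters' processing notes name GRCm38.p4 as the build and TopHat2 (version 2), SAMtools, HTSeq and DESeq2 as tools, without their roles. Which annotation was counted, and on which strand, is not given in the sources used here. Reads of 25 named genes with an exon on the opposite strand may be shared (Foxp3, Tgm2, H2-Oa and Cdc20 among them). The library columns that the authors deposited are a signal: reads divided by 1 size factor per library, as the values show (100% whole reads within 0.01). The deposited log2 fold changes, p-values and scores of the authors were not used. Values were tested with limma 3.58.1 (trend, log2 of value + 1, mean of at least 10) with number set and treatment as terms, and adjusted by Benjamini-Hochberg. The plan named edgeR for raw counts. As the values were normalized, limma was used, with edgeR 4.0.16 and DESeq2 1.42.0 on the recovered reads as alternatives. On simulated reads for the comparison of numbers 1-2 minus 3-4 over 11083 genes in 7 libraries, limma recovered 111 of 112 genes with a 2-fold change and all 88 with a 4-fold change, while 9 unchanged genes were called. These reads had 1 fixed spread for all genes, no library like FcCD70 2 and no trend with length or GC content. The changed genes were drawn from those of higher level. The simulation therefore checks the code and does not give the share of changes found in the real libraries. Gene coordinates, lengths and GC content are from GENCODE M21 (GRCm38), which held 19618 of the 19703 genes.

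The members and the 41 gene lists (671 genes, 542 tested) were chosen with earlier results of these data known. The genes named are Kit, Thy1, Foxp3, Il17a, Il17f, Cd27, Il7r and Xist; the 12 that changed most in each direction of those called with and without FcCD70 2, with a mean of at least 50, sets that do not overlap and no gene model, pseudogene, histone cluster or receptor segment name; and, per list, at most 2 called members a direction by smallest p, or the member with the smallest p where none was called. Not all of them are described, and 1 Th17 gene is not reported here. Others, and the families, were chosen after their values were seen: Il23r, Il1r2, Il10ra, Bub1, Birc5, Cenpe, Kif11, Ncapg, Cdc20, Ccnb2, Mki67, Cdc6, Pcna, Cdt1, Brca1, Gzmb, Prf1, Il12rb2, Pim2, H2-Ab1, B2m, Rps3, Hdc, Lars2, Csn2, Aqp4, Kdm5c, Ddx3x, Ahr, Batf, Stat3, Irf4, Hif1a, Maf, Ctla4, Ikzf2, Izumo1r, Cd4, Cd247 and Cd3e.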

Additional observations from a re-analysis of the deposited data

Results flagged for a closer look

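In the 4 libraries numbered 1-2, 13 of 145 values examined (genes and list medians) had a library far from the other 3 by Dixon's test at its 95% critical value, where chance gives about 1 in 20 groups. Of these, 10 were in FcCD70 2, the library in which long transcripts are low. Ccnd2 was at 5038 there, against 6704 to 6982 in the other 3, Pecam1 at 6361, and Kdm5c at 1697. Rps3, a protein of the small ribosomal subunit, was at 75939 and B2m, the light chain of MHC class I, at 57298, both above the other 3 libraries. The median log2 deviations of FcCD70 2 that stood apart were 0.22 for inhibitory receptors, 0.37 for oxidative phosphorylation, 0.15 for antigen presentation, 0.18 for T cell markers and -0.61 for sex-linked genes.

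Outside FcCD70 2, Lzts2 was low in FcCD70 1 at 38.3, Havcr2 high in untreated 2 at 178, and Hdc low in untreated 1 at 6.6.

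The difference between numbers in Foxp3 took opposite signs in the treatments, 0.29 in the untreated libraries and -0.55 in the FcCD70 libraries, a difference of -0.85. By the interaction term it was not called (limma adjusted p = 0.968, unadjusted p = 0.115), and in FcCD70 1 against FcCD70 3 alone the value was -0.02.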

How the results depend on the processing

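Counts of genes called over 7 libraries (210 higher, 115 lower) stayed within 1.5 times with TMM scaling, edgeR, pseudocounts of 0.5 and 5, and means of at least 1 and 50. DESeq2 called 495 higher and 388 lower. With no filter 73 were lower, and with no trend 90 were higher and 43 lower. With no treatment term 195 were lower. Leaving out 1 library gave 0 to 1438 higher and 0 to 1556 lower. Without both libraries numbered 1, 0 were called (1620 at an unadjusted p under 0.05), without both numbered 2, 1440 higher and 1607 lower, and without both numbered 3, 0 (376 unadjusted). The rebuilt FcCD70 4 gave 522 and 508, removal of the length and GC trend 388 and 390, and untreated libraries alone 852 and 843. Where both FcCD70 1 and 2 but not FcCD70 3 were kept, the FcCD70 libraries gave no value of the difference; for the other settings the cause was not tested.

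Without FcCD70 2 (1438 higher, 1556 lower), no filter gave 772 and 835, no trend 573 and 592, leaving out a further library 841 to 1440 and 831 to 1607, and leaving out both numbered 3, 318 and 272. In untreated libraries alone, leaving out 1 gave 329 to 1496 higher and 288 to 1655 lower, the lone library being assumed to vary like the others.

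The library number as a random replicate block gave 289 higher and 188 lower over 7 libraries, and 2213 and 2367 without FcCD70 2. The correlation within a number was -0.0967 over 7 libraries and -0.412 without FcCD70 2. The difference of untreated 1 and 2 correlated with that of FcCD70 1 and 2 at 0.0282 across genes. For numbers 3 and 4, with the rebuilt library, the value was 0.182. The first of these holds FcCD70 2, in which long transcripts are low, so it cannot settle whether libraries with the same number are a pair. No pairing was assumed. If they are pairs, the p-values of the main fits treat libraries that belong together as independent.

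Over the named genes, 15 values of 5 genes turned sign, none of them called over 7 libraries. Foxp3 (-0.05) ranged from -0.19 to 0.29 with 1 library left out: it was 0.29 without FcCD70 3, 0.19 without FcCD70 2, 0.23 and 0.25 without both numbered 2 and both numbered 3, 0.03 with length and GC removed and 0.29 in untreated libraries. Cd27 (-0.04) was 0.0 without untreated 2, 0.06 without both numbered 2 and 0.03 with length and GC removed. Pcna (0.06) ranged from -0.09 to 0.21 in the same way: it was -0.04 without untreated 1, -0.09 without FcCD70 2, and -0.01 without both numbered 2 and with length and GC removed. Itga2b was -0.05 and Rps3 0.05 without both numbered 1. Depth limits genes near 3 reads, a normalized count of 2.61 to 3.37.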
